A study of Zea mays with 112 samples.

Results

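Binding sites of 4 maize NAC transcription factors, NACTF5, NACTF6, NACTF49 and NACTF109, were described here from 4 of the 13 deposited peak lists whose names consist of NACTF and a number. The series holds another 99 lists, each of a different TF. The 4 lists were chosen by their measured sharing of peaks: each pair of them shared over 60% of the 5000 peaks of highest signal. Sharing is the percentage of these peaks with a top-5000 summit of the other list within 100 bp, averaged over both directions. The gene identifiers in the labels are Zm00001d005208 for NACTF5, Zm00001d013003 for NACTF6, Zm00001d034601 for NACTF49 and Zm00001d042609 for NACTF109. The other 9 NACTF lists (NACTF2, NACTF11, NACTF29, NACTF61, NACTF65, NACTF67, NACTF77, NACTF126 and NACTF134) served for contrast.

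The study mapped binding sites by ampDAP-seq, in which a HaloTag fusion of a TF made in wheat germ extract pulls down PCR-amplified genomic DNA. All lists share the same source of DNA, leaves of B73 plants 14 days after germination, and no chromatin or DNA methylation was present. Each TF was measured once, so a value of 1 list has no replicate error, and the 4 TFs are not replicates of each other. Read depth is unknown for every list.

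NAC proteins are a plant TF family with a conserved DNA-binding NAC domain near the amino terminus and a variable, often activating, region after it. They bind DNA as homodimers or heterodimers, and many family members recognise sites with a CACG core. In cereals, NAC proteins are known for regulating senescence, stress responses and the filling of the endosperm with storage products.

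The study's motif list has an entry for each of the 4 TFs, and the 2 entries without ambiguity letters are shown because these TFs shared most of their top peaks. Capitals mark the longest run of letters found in both strings.
NACTF5: aACAAGaaacat
NACTF49: cggcACAAGt
The shared run is 5 bases long and starts at base 2 of the NACTF5 string and at base 5 of the NACTF49 string. Genomic sequence was not used here, so how often either string lies under a peak was not measured.

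The lists of NACTF109, NACTF49 and NACTF5 were long, with 128468, 123504 and 107543 peaks, whereas that of NACTF6 had 27643. The median over all lists of the series was 74233 peaks. A −log10 q of 10 or more was reached by 36.2% of the NACTF49 peaks, 31.6% of the NACTF5 peaks, 28.0% of the NACTF109 peaks and 13.1% of the NACTF6 peaks. The highest signal of a peak was 3032 for NACTF49, 2464 for NACTF109, 1881 for NACTF5 and 486 for NACTF6, and the signal is not stated to be scaled between lists. NACTF6 thus had the shortest list and the smallest share of strong calls, and its top 5000 peaks made up 18.1% of its list, against 3.89% to 4.65% of the other 3.

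The sharing that defines the 4 lists is given as a description. NACTF5 and NACTF109 shared 70.5% of their top peaks, NACTF5 and NACTF49 68.3%, and NACTF6 and NACTF109 65.4%. NACTF49 and NACTF109 shared 63.8%, NACTF5 and NACTF6 63.3%, and NACTF6 and NACTF49, the pair just inside the threshold, 62.1%. In all, 6 of the 78 pairs of NACTF lists (7.69%) passed 60%, which are the 6 pairs that the rule took. The pair just outside was NACTF29 and NACTF11 with 59.7%, followed by NACTF2 and NACTF29 with 58.05%, and NACTF2 and NACTF11 shared 51.2%.

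Between the 4 lists and the other 9, sharing of top peaks was lower. It ran from 0% to 9.35% over the 36 mixed pairs, with a median of 2.07%. NACTF29 was the list closest to each of the 4, sharing 9.35% with NACTF109, 8.63% with NACTF5, 7.64% with NACTF49 and 7.30% with NACTF6. NACTF126 shared 4.35% to 5.72% with the 4 and NACTF2 3.44% to 4.19%. Among the 99 lists outside the NACTF name, NRP1, another NAC protein (NAM-related protein), was closest to each of the 4, with 5.39% for NACTF109, 5.01% for NACTF6, 4.44% for NACTF5 and 4.03% for NACTF49. The median over those 99 lists was 0.02% for NACTF5 and NACTF6 and 0.04% for NACTF49 and NACTF109. Strong sites of the 4 TFs nevertheless often had a summit of another NACTF list nearby when summits of any rank counted. A summit of at least 1 of the other 9 lists lay within 100 bp of 72.5% of the top 5000 peaks of NACTF109, 69.8% of those of NACTF5, 66.0% of those of NACTF6 and 57.4% of those of NACTF49. For the 1000 strongest peaks it was 94.6% for NACTF109, 94.2% for NACTF6, 92.8% for NACTF5 and 81.7% for NACTF49, and the median over the single other lists was 39.6% to 55.1%. Each NACTF list except NACTF2 was deposited with a code that holds a run of digits. What the code stands for is not stated. Its first 5 digits did not follow the grouping of the 4 lists. NACTF5 and NACTF6 had the same 5 digits, as did NACTF49 and NACTF109, and the 4 pairs with different digits shared 66.6% on average.

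**Figure D1:**
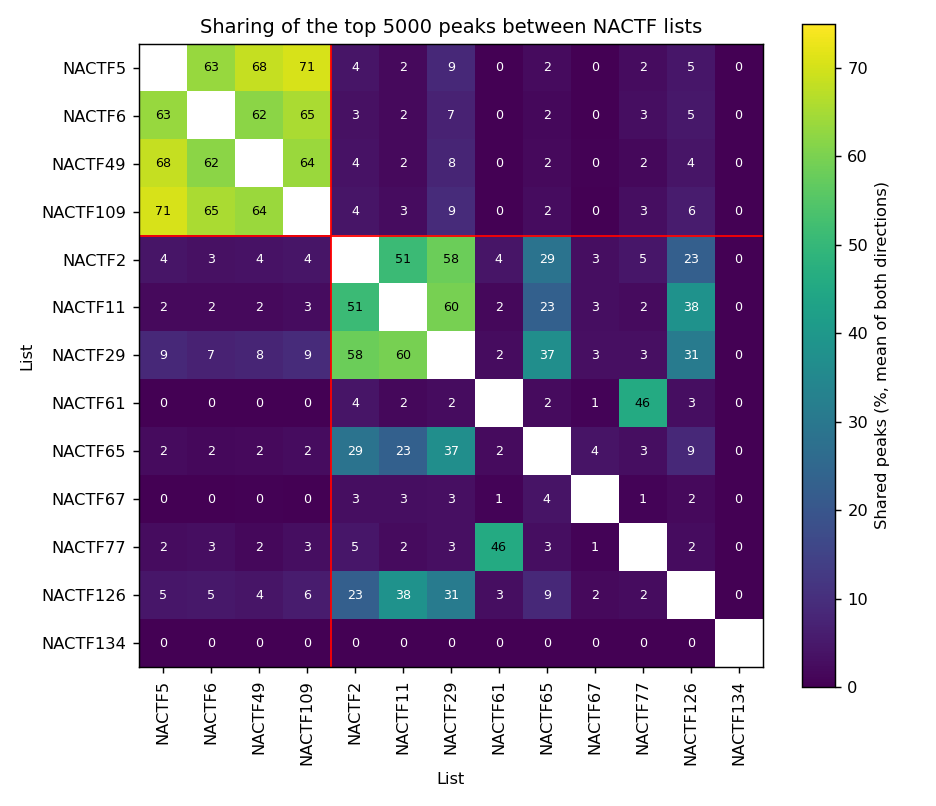
Each cell gives the percentage of the top 5000 peaks shared by a pair of NACTF lists (mean of both directions, within 100 bp), with the 4 lists described here at the top and left of the red lines. The 6 pairs of the 4 lists lie between 62.1% and 70.5%, and their 36 pairs with the other 9 lists do not exceed 9.35%.

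Chaining the summits of all peaks of the 4 lists at gaps of up to 100 bp gave 207427 loci. Of these, 17521 (8.45%) held a summit of all 4 TFs, 30287 (14.6%) of 3, 39724 (19.2%) of 2 and 119895 (57.8%) of a single TF. Most of the loci with 3 TFs, 26053, were those that lacked NACTF6 only. Without NACTF6, 43440 loci were common to the other 3 lists, against 18365 to 18967 when any other of the 4 was left out. Private loci numbered 49688 for NACTF109, 40333 for NACTF49, 27587 for NACTF5 and 2287 for NACTF6. In a common locus, NACTF5 had 2 or more peaks at 31.6% of loci, NACTF49 at 29.3%, NACTF109 at 26.3% and NACTF6 at 5.14%. Keeping only peaks with a −log10 q of 10 or more left 3249 common and 31712 private loci.

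The top 5000 peaks are those the lists were chosen on, so their share in common loci follows in large part from the choice. Of the top 5000 peaks, 94.0% lay in common loci for NACTF6, 89.6% for NACTF109, 89.4% for NACTF5 and 86.2% for NACTF49. Over whole lists, the share in common loci was 66.7% for NACTF6, 22.0% for NACTF5, 18.7% for NACTF49 and 17.6% for NACTF109. Peaks in private loci were weak. Their median rank was 87999 of 128468 for NACTF109 and 87742 of 123504 for NACTF49, against 17169 and 19978 for the peaks of the same lists in common loci. For NACTF5 the median rank was 80019 in private and 18222 in common loci, and for NACTF6 it was 21866 and 10659. A −log10 q of 10 or more was reached by 0.31% to 9.41% of the private peaks and by 18.9% to 75.7% of the common peaks, each range over the 4 lists.

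**Figure D2:**
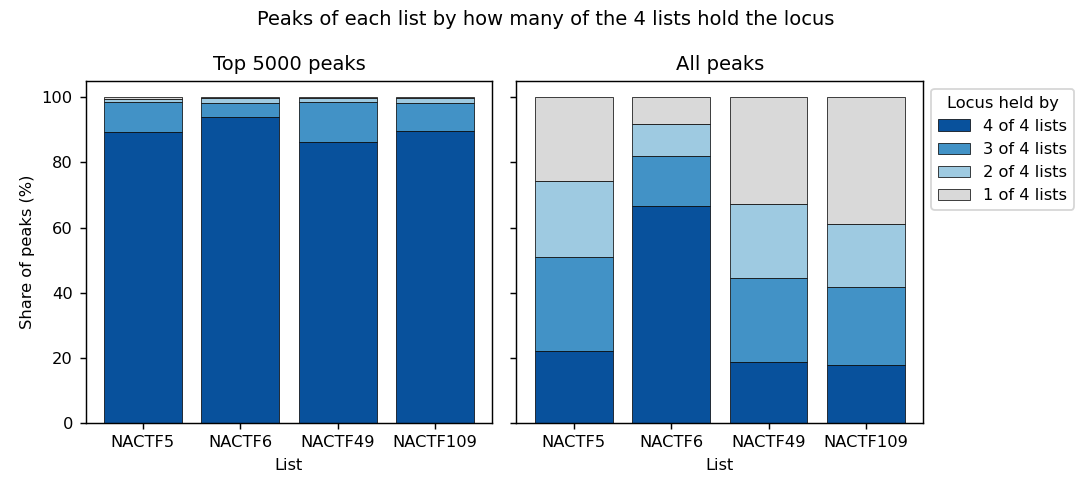
Bars give the percentage of the top 5000 peaks (left) and of all peaks (right) of each list that lie in loci held by 4, 3, 2 or 1 of the 4 lists. Common loci hold 86.2% to 94.0% of the top peaks but 17.6% to 66.7% of whole lists.

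By rank, sharing fell steadily. A summit of all 3 other lists, at any rank, lay within 100 bp of 97.6% of the 1000 strongest NACTF109 peaks, 97.0% for NACTF6, 96.2% for NACTF49 and 95.2% for NACTF5. Among peaks past rank 50000 it was 4.84% for NACTF5, 4.39% for NACTF49 and 3.72% for NACTF109. Peaks without any summit of the other 3 lists made up 0.1% of the 1000 strongest peaks of NACTF109 and 0% of those of NACTF5, NACTF6 and NACTF49. Past rank 50000 they made up 40.5% to 54.1% of the peaks of the 3 long lists. The order of the loci was also alike. At the 17521 common loci, the best rank in 2 lists correlated with a Spearman rho between 0.62 (NACTF6 and NACTF49) and 0.76 (NACTF5 and NACTF109). This is a description over loci from the same source of input DNA.

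**Figure D3:**
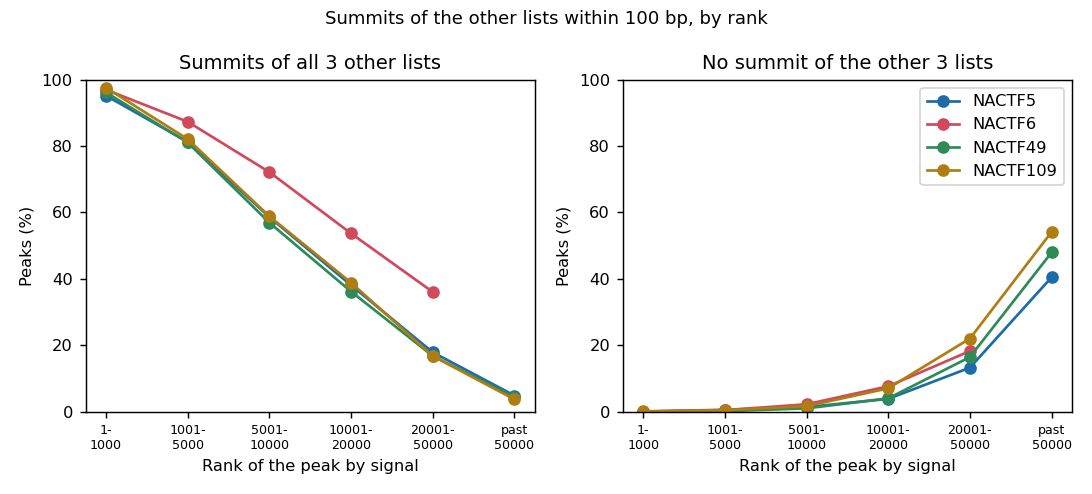
Points give, for each list and range of ranks by signal, the percentage of peaks with summits of all 3 other lists within 100 bp (left) or with none (right). All 4 lists start above 95% on the left and near 0% on the right. NACTF6 has no peak past rank 50000.

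The 5 common loci whose lowest placing over the 4 lists was best were headed by one on chromosome 7. At chr7:169172314-169172675 (B73 v4), all 4 TFs had the strongest peak of their list, with a signal of 1881 for NACTF5, 486 for NACTF6, 3032 for NACTF49 and 2464 for NACTF109. The next were at chr3:37456866-37457131 (ranks 17, 11, 15 and 21 for NACTF5, NACTF6, NACTF49 and NACTF109), chr2:229524773-229525055 (ranks 26, 8, 9 and 16) and chr1:70799558-70799821 (ranks 29, 15, 31 and 9). The last was on the unplaced contig ctg6 from 248384 to 248720 (ranks 24, 36, 8 and 7). All 5 also held summits of 4 or 5 of the other 9 NACTF lists, among them NACTF2, NACTF29 and NACTF126 each time, and of 5 to 9 of the 99 other lists. Gene annotation of this build was not used here.

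Strong private sites were few. Among the top 5000 peaks, 22 of NACTF5, 18 of NACTF6, 17 of NACTF109 and 5 of NACTF49 lay in private loci, and 2 of each list had no summit of the other 3 within 1 kb. The strongest such peak of NACTF49 was at chr4:60231833-60232033 (rank 1530, signal 409) and that of NACTF5 at chr1:248633490-248633690 (rank 1646, signal 257). Neither was free of other TFs, since summits of 9 of the 99 lists outside NACTF lay within 100 bp of each, and NACTF2 also at the NACTF49 site. The strongest of NACTF109 was on contig ctg71 from 6918 to 7118 (rank 3217, signal 193), together with NACTF126 and 1 list outside NACTF. The strongest of NACTF6, at chr4:120616572-120616772 (rank 4293, signal 51), had no summit of any of the other lists.

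At shared sites, the summits of the 4 TFs favoured certain distances, which held for 16.1% to 39.4% of the shared top peaks of a pair. Between NACTF6 and NACTF49, 39.4% of 3047 shared top peaks were exactly 29 bp apart, 631 in one direction along the chromosome and 570 in the other. NACTF5 and NACTF6 were exactly 4 bp apart at 38.2% of 3336 shared top peaks, and NACTF6 and NACTF109 2 bp apart at 37.5% of 3116. The most frequent distance was 25 bp for NACTF5 and NACTF49 (20.6% of 3542), 6 bp for NACTF5 and NACTF109 (20.1% of 3558) and 31 bp for NACTF49 and NACTF109 (16.1% of 3104). Both directions occurred in each pair, and the lists give no strand. Identical summits were not the most frequent outcome in any of the 6 pairs, and NACTF6 and NACTF49 had them at 4.23% of their shared top peaks. Next in frequency was a distance of 63 bp between NACTF5 and NACTF6 (10.8% of their shared top peaks) and of 65 bp between NACTF6 and NACTF109 (6.48%).

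The pairs with NACTF49 differed in the spread of distances from those without it. The median absolute distance was 25 to 29 bp in the 3 pairs with NACTF49, against 7 to 18 bp in the 3 pairs without it. Summits lay within 20 bp of each other at 34.6% to 46.5% of the shared peaks in the pairs with NACTF49, against 50.9% to 59.7% in the pairs without it. Within 50 bp the order was the other way round, at 83.3% to 93.6% in the pairs with NACTF49, against 70.4% to 81.0% in the pairs without it. In the top 2000 peaks and over all peaks the medians did not split this way. In the top 2000 the median was 16 bp for NACTF49 and NACTF109, against 19 bp for NACTF5 and NACTF6. Over all peaks it was 26 bp for NACTF5 with NACTF49 and also for NACTF5 with NACTF109. For comparison, the median absolute distance was 1 to 13 bp in the 10 pairs of other NACTF lists with 500 or more shared top peaks. Favoured distances were not particular to the 4 lists. In these 10 pairs the most frequent distance was 0 to 5 bp and held for 28.8% to 53.9% of the shared top peaks. Of the mixed pairs, NACTF109 and NACTF29 alone had that many, with 520 shared peaks, a median of 33 bp and a most frequent distance of 37 bp. The distances of the 4 lists come from the shared peaks that the rule used, so they are not tested.

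**Figure D4:**
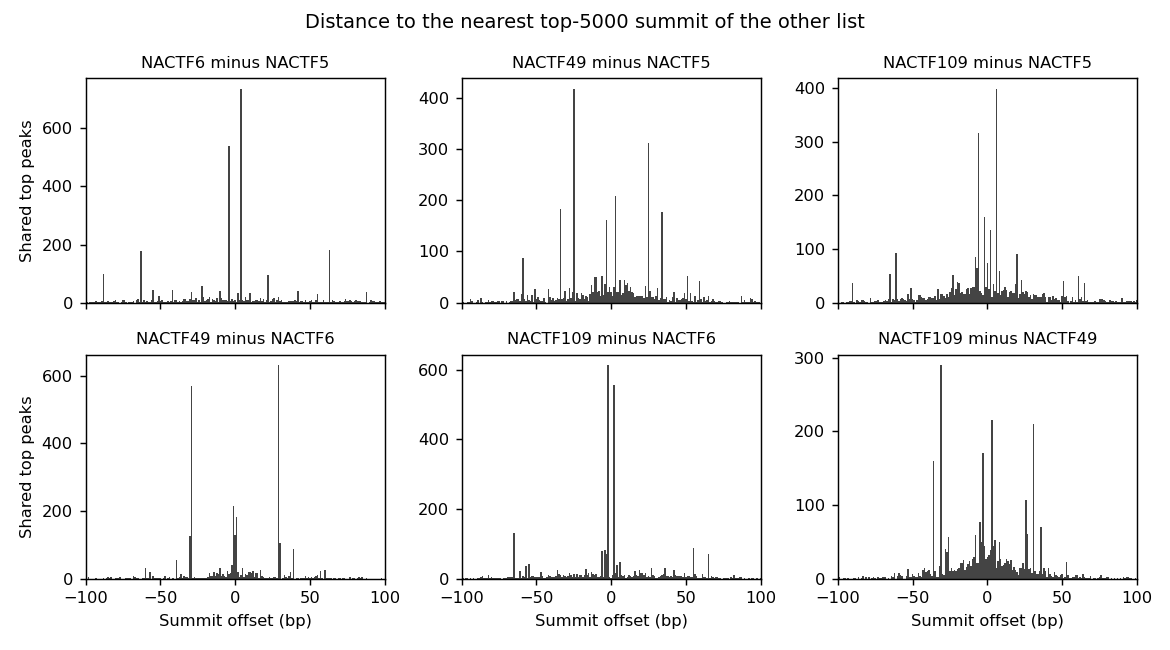
Bars count shared top peaks by the signed distance in bp, along the chromosome, between the summits of each pair of the 4 lists. Sharp spikes of both signs stand at 4, 25, 6, 29, 2 and 31 bp, in the order of the panels.

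The most frequent distances added up along 1 axis. Reading all 4 lists from each NACTF6 summit, an approach chosen after seeing the pairwise distances, the most frequent layout had NACTF109 at −2 bp, NACTF6 at 0, NACTF5 at 4 bp and NACTF49 at 29 bp. It stood at 250 of 2198 sites with top peaks of all 4 TFs (11.4%), 116 as written and 134 mirrored, and these sites had 1156 different layouts in all. Over all peaks it stood at 1308 of 16199 sites, 589 as written and 719 mirrored. In the layout next in frequency, at 134 of the 2198 sites, NACTF49 moved to 1 bp and the other 3 kept their places. Where NACTF5 and NACTF49 both stood at their most frequent distance from a NACTF6 top summit, they were on the same side of it at all 514 sites. NACTF109 and NACTF5 were on opposite sides of NACTF6 at 445 of 499 such sites, and NACTF109 and NACTF49 at 425 of 486.

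The 1308 sites of this layout lay on all 10 chromosomes, with 85 to 217 on each. The median rank of their NACTF6 peak was 6052, against 10381 at the other 14891 sites with all 4 TFs. A summit of any of the other 9 NACTF lists lay within 100 bp at 68.3% of them, against 34.9% of the others. Peaks lower in the lists kept the most frequent pairwise distances at first. In the 5000 peaks that follow the top 5000, the same distance was the most frequent in each of the 6 pairs, at 12.4% to 30.8% of the peaks shared in that range. Among the 10000 peaks after those, the most frequent distance was another in the 3 pairs with NACTF49 (10 bp with NACTF5, 0 bp with NACTF6 and 3 bp with NACTF109) and the same in the other 3 pairs. At the 5 loci named above, the best NACTF5 peak was 4 bp from the NACTF6 peak 4 times and 8 bp once, whereas NACTF49 was 10 to 21 bp away. In the order named, NACTF5 lay at 4, −4, −4, −4 and −8 bp and NACTF109 at −2, −12, −15, −16 and −10 bp. NACTF109 and NACTF5 were thus on opposite sides of NACTF6 only at the chromosome 7 locus. The best peaks of none of the 5 loci stood in the most frequent layout.

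Neighbouring peaks of 1 list also favoured fixed distances. Of 1202 gaps of up to 200 bp between NACTF6 peaks, 419 (34.9%) were exactly 192 bp and 204 (16.97%) exactly 59 bp. These 1202 were 4.35% of all gaps between neighbouring NACTF6 peaks. NACTF109 shared the 192 bp gap as its most frequent one (629 of 13018, 4.83%), whereas it was 196 bp for NACTF49 (1234 of 17237, 7.16%) and 114 bp for NACTF5 (1203 of 14435, 8.33%).

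Toward the chromosome ends, peaks of the 4 lists were more frequent. The outer share is the percentage of peaks on chromosomes 1 to 10 within 25% of the span from an end, so that both ends together make up 50% of the span. For the top 5000 peaks it was 64.6% for NACTF6, 64.4% for NACTF49, 64.3% for NACTF5 and 63.96% for NACTF109. These were the 4 highest values of the whole series. The other 9 NACTF lists ran from 39.6% to 53.4%, and the 99 other lists from 29.04% to 61.7% with a median of 51.2%. A share of 5000 peaks carries a counting error of at most 1.39 percentage points (95% Wilson interval, counting error only).

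Because the top peaks are the shared ones, the test used the next 5000 peaks of each list. There the outer share was 61.6% for NACTF5, 60.5% for NACTF49, 59.8% for NACTF6 and 59.6% for NACTF109. The other 9 lists ran from 44.2% for NACTF11 to 54.98% for NACTF134 and did not overlap with the 4. The mean was 60.4% ± 0.91 (SD, n = 4) against 48.5% ± 4.05 (SD, n = 9), a difference of 11.9 percentage points (exact permutation test of list labels, two-sided, p = 0.0014, the smallest that 4 against 9 lists can give, and adjusted p = 0.0084 over 6 tests). At 56.9% to 72.2% of these next peaks the other 3 lists also had a summit, so the 4 values are not independent of each other. Some of the other 9 lists also shared top peaks, with 59.7% for NACTF11 and NACTF29 and 45.8% for NACTF61 and NACTF77. The test counts every list as a separate unit, so its p-value does not take this sharing into account. Over all peaks past the top 5000 the difference was 5.29 points and no longer passed (adjusted p = 0.0755, exact permutation test). Among the lists whose deposited codes begin like those of NACTF49 and NACTF109, 2 against 6 in number, it was 10.7 points (adjusted p = 0.113, exact permutation test, smallest possible p = 0.0357). Over whole lists the 2 groups overlapped. There the outer share was 54.2% for NACTF49, 54.6% for NACTF5, 55.2% for NACTF109 and 58.6% for NACTF6. The other 9 lists ran from 46.3% for NACTF11 to 55.75% for NACTF134.

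The profiles of the 4 lists along the chromosomes were similar, and differences among them were not tested. Of the next 5000 peaks, 5.95% to 6.50% fell in the fifth of 10 equal parts of the span, against 6.92% to 12.5% in the other 9 lists, and 12.7% to 14.0% in the last part, against 7.86% to 10.9% in the other 9. Position also varied with how many TFs held a locus. The outer share was 60.04% for common loci, 54.8% for loci with 3 TFs, 53.4% with 2 and 52.2% for private loci. Common loci held 86.2% to 94.0% of the top 5000 peaks, which the rule used and whose outer share was 63.96% to 64.6%. This gradient is therefore not separate from peak rank or from the choice of the lists, and the part of either was not tested. Per chromosome, common loci ranged from 7.195 per Mb on chromosome 4 to 8.87 per Mb on chromosome 5, and private loci from 54.3 per Mb on chromosome 6 to 58.2 per Mb on chromosome 1.

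**Figure D5:**
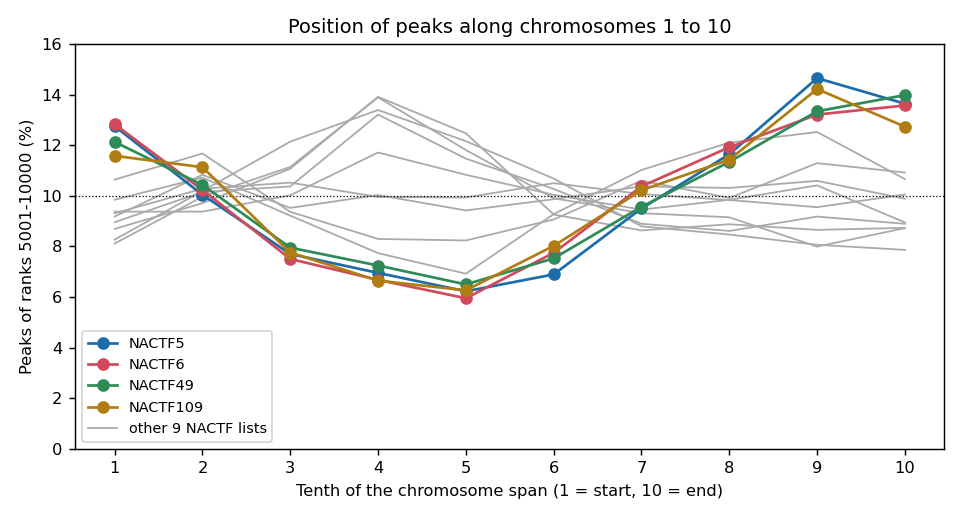
Lines give the percentage of the 5000 peaks after the top 5000 in each of 10 equal parts of the chromosome span, over chromosomes 1 to 10, for the 4 lists (coloured) and the other 9 NACTF lists (grey). The dotted line marks an even 10%, and the 4 lists lie at 5.95% to 6.50% in the fifth part.

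The other 5 measures did not pass the test between the 4 lists and the other 9. The mean log10 number of peaks was 4.92 ± 0.32 (SD, n = 4) against 4.82 ± 0.33 (SD, n = 9, adjusted p = 0.968, exact permutation test). The share of peaks with a −log10 q of 10 or more was 27.2% ± 9.98 (SD, n = 4) against 28.9% ± 16.5 (SD, n = 9, adjusted p = 0.968, exact permutation test). In the next 5000 peaks, another such peak of the same list lay within 1 kb of 5.95% ± 2.24 (SD, n = 4) against 5.87% ± 3.06 (SD, n = 9, adjusted p = 0.968, exact permutation test). The share of these peaks on any sequence other than chromosomes 1 to 10 (off-chromosome share) was 0.94% ± 0.095 (SD, n = 4) against 1.28% ± 0.26 (SD, n = 9, unadjusted p = 0.0378 and adjusted p = 0.113, exact permutation test). This difference passed over all peaks past the top 5000 (−0.15 points, adjusted p = 0.021, exact permutation test) and without NACTF77 (−0.40 points, adjusted p = 0.036, exact permutation test). It did not pass when any other single list was left out. Nor did it pass among the lists of like deposited code (−0.36 points, adjusted p = 0.357, exact permutation test). Over whole lists, which include the top 5000 peaks that the rule used, the off-chromosome share was 0.89% to 0.94% in the 4 lists. In the other 9 it was 0.95% to 1.36%. The nearest values were 0.938% for NACTF49 and 0.954% for NACTF67, and the whole-list difference was not tested. The mean sharing of the next 5000 peaks with the top peaks of the 99 lists outside NACTF was 0.18% ± 0.047 (SD, n = 4) against 0.45% ± 0.31 (SD, n = 9, adjusted p = 0.221, exact permutation test).

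Other TFs were found at common loci more often than at private ones. Any of the other 9 NACTF lists had a summit within 100 bp at 38.1% of common loci, against 15.2% of private loci, and any of the 99 other lists at 77.99% against 53.8%. Of the common loci, 3163 (18.1%) held no other TF of the series. The longer common loci offer more room for a match, since their summits spanned a median of 84 bp, against 0 bp for private loci, and the part of this in the difference was not tested. NRP1, with 170007 peaks, was at 27.5% of common and 7.01% of private loci. It was followed by HB91 (23.6% and 11.6%), NACTF2 (22.0% and 5.09%), NACTF29 (19.8% and 4.97%) and OCL5A (19.8% and 11.4%). HB91 and OCL5A carry homeobox-type names and had 211196 and 233664 peaks. NACTF126 was at 19.5% of common and 5.32% of private loci, with 127094 peaks.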

How the data were processed

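ampDAP-seq peak lists, 1 per TF, were used as deposited. Per the study, reads had been trimmed with Trimmomatic 0.39, aligned to B73 v4 with Bowtie2 2.4.1, freed of duplicates with Picard and called with GEM against an empty HaloTag vector control, which was not analysed here. GEM places a summit with the help of enriched short sequences, so a summit is the caller's estimate of the bound base. Every interval was 201 bp wide. The deposited score column held a peak score of the authors' caller and was not used. The authors' signal column, with no stated scaling between lists, served to rank peaks within a list. Columns with −log10 p-values and −log10 q-values, deposited by the authors, gave the stricter threshold (q column). Peak numbers depend on read depth, which the lists do not state.

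Lists were grouped by their titles. The members, lists and tests were chosen with earlier results of these data known. Sharing, loci, offsets and positions were computed with Python 3.11.15, numpy 2.4.6 and pandas 2.3.3 and checked on simulated data. Chromosome span was the largest peak end over all lists of the series. Tests were exact permutations of list labels, two-sided, 4 against 9, with Benjamini-Hochberg adjustment over 6. The text names all 13 NACTF lists, the 5 common loci whose worst rank over the 4 lists was best, the strongest peak of each of the 4 lists without another of them within 1 kb, and the 5 other lists most often at common loci, with NACTF126 added after its values were seen. Protein identity and motif counts were planned but not run, since no protein or genome sequence was used here. The joint layout of summits was added after seeing the data.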

Additional observations from a re-analysis of the deposited data

Results flagged for a closer look

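Among the 12 groups of list values checked for a single distant list (6 measures, each over the 4 and over the other 9 NACTF lists), 2 were flagged, where chance flags about 1 in 20. NACTF6 stood apart from NACTF5, NACTF49 and NACTF109 in its number of peaks, with a log10 of 4.44 (27643 peaks). NACTF67 stood apart from the other 8 contrast lists in its sharing with lists outside NACTF, at 1.18% of its next 5000 peaks on average. NACTF67 had 11215 peaks, and the cause was not tested.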

How the results depend on the processing

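The mean sharing of the 6 pairs, 65.6% within 100 bp, was 31.5% within 20 bp, 69.5% within 200 bp, 69.1% for the top 2000 and 61.4% for the top 10000 peaks. It moved by less than the SD of 3.25 over the pairs under the other settings. The number of common loci, 17521, fell to 3249 and that of private loci, 119895, to 31712 at a −log10 q of 10 or more, and leaving out 1 of the 4 lists gave 18365 to 43440 common loci, the highest without NACTF6. The difference in outer share, 11.9 points, was 5.29 over all peaks past the top 5000 and 10.7 among lists of like deposited code, and passed in neither, whereas it passed without any single list (11.4 to 12.7 points). The difference in off-chromosome share, −0.34 points, passed over all peaks past the top 5000 (−0.15, adjusted p = 0.021, exact permutation test) and without NACTF77 (−0.40, adjusted p = 0.036, exact permutation test), in a range of −0.40 to −0.30 when 1 list was left out. It did not pass in the main setting or in any other alternative run. The causes were not tested. The other 4 tests kept their side of the threshold under all alternatives run. No paired analysis was possible because the numbers in the titles only name different TFs. Protein identity and motif alternatives were not run. Without read depth, a site missing from a list cannot be told apart from one below its detection limit.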
